A study of Mus musculus with 10 samples.

Results

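The phagocyte NADPH oxidase was described in 10 RNA-seq libraries of ER-Hoxa9-Lys-GFP cells through 6 of its genes, chosen by name: Cybb, Cyba, Ncf1, Ncf4, Rac2 and Hvcn1. All 6 were found among the 26227 genes of the deposited files, each represented by 1 principal coding transcript matched by Ensembl identifier to GENCODE M21. The oxidase moves electrons from NADPH across the membrane of the phagosome to oxygen and so makes superoxide. Its catalytic core is a membrane heterodimer, and it stays inactive until cytosolic subunits and a Rac GTPase join that core on stimulation. It is best known for the oxidative burst of neutrophils and macrophages, and loss of a subunit causes chronic granulomatous disease in humans.

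ER-Hoxa9-Lys-GFP cells are a cultured mouse line of the C57BL/6 strain, and the series asked when such cells commit irreversibly to myeloid differentiation. As background, a fusion of Hoxa9 with a domain of the estrogen receptor works only with estradiol (E2) and keeps cells in a myeloid progenitor state, and all groups carry it. The untreated group was kept in E2 and is labelled 0 h, while the other groups ran for 120 h in total. The labels do not say whether untreated cells were also cultured for 120 h. If not, time in culture and withdrawal cannot be told apart in comparisons with untreated cells. In the 24 h group E2 was washed out for 24 h and then added back for 96 h, in the 40 h group these times were 40 and 80 h, and in the 72 h group 72 and 48 h. The 120 h group stayed without E2 for 120 h. All cells grew in RPMI with serum and stem cell factor conditioned medium, in vitro, as 1 line. Each group had 2 libraries, and nothing in the labels says that these were separate cultures. The p-values below therefore measure only the spread between these libraries, which may be technical. In the 3 add-back groups a longer withdrawal came with a shorter time back in E2, so the effects of these times cannot be told apart.

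Levels are RPKM (reads divided by transcript length and library depth), and the depths recovered from the files were 173620000 to 204380000 reads. Fold changes are differences of log2(RPKM + 1) between groups, given with their standard error (SE), and they understate the change of low genes. Genes were tested with limma over the 13004 genes at 1 RPKM or more in at least 2 libraries, and a gene was called when its p, adjusted by Benjamini-Hochberg (BH) over all of them, was under 0.05. Between the 120 h and untreated groups 3582 genes were higher and 6858 lower, or 5222 and 4982 after median-of-ratios scaling, which moved the median log2 fold change of all genes to 0.01, against -0.36 as deposited. Between the 72 h and 120 h groups 6636 were higher and 3435 lower, or 4331 and 5087 after that scaling. The summed RPKM of 8 neutrophil markers was 35.7 to 40.1 in untreated, 42.5 to 43.5 in 24 h, 55.4 to 56.3 in 40 h, 439.9 to 696 in 72 h and 24250.2 to 24600.4 in 120 h libraries. The corresponding sums of 8 monocyte and macrophage markers were 131 to 135, 112 to 113, 132 to 133, 777 to 898 and 2219.1 to 2429.9, and those of 6 myeloid progenitor markers were 1553.5 to 1573.4, 1492.1 to 1516, 1306 to 1443.3, 692 to 761 and 173 to 201. All 8 neutrophil markers were at 1 RPKM or more in both libraries of the 72 h and 120 h groups, against 2 in untreated, 3 in 24 h and 4 in 40 h. All 8 monocyte and macrophage markers reached that level in every group but untreated, where 7 did. Of the other marker lists, that of eosinophils, basophils and mast cells summed to 1360.3 to 1541 RPKM at 72 h, against 202 to 498 RPKM in the other groups. Nearly all of the 72 h sum was Prg2 (mean 1395 RPKM), and Fcer1a was at 0 in the first 4 groups. By group means at 72 h against untreated cells, 3 genes of this list were higher (Epx, Prg2 and Ms4a2) and 3 lower (Mcpt8, Cpa3 and Gata2). The dendritic cell sum, nearly all Flt3, was 2.02 to 257 RPKM, and the erythroid and megakaryocyte, B cell, T and NK cell and stroma sums stayed at or below 19.1, 7.95, 0.426 and 0.347 RPKM. Mitochondrially encoded genes took 2.59 and 3.06% of coding RPKM at 72 h, against 1.41 to 2.11% in the other groups. By group means, all 8 neutrophil markers were higher in the 72 h and 120 h groups than in untreated cells. So were 7 of 8 monocyte and macrophage markers, the exception being Ccr2 (41.7 and 35.1 RPKM, against 112 RPKM in untreated cells). Of the 6 progenitor markers, 4 were lower in the 72 h group and 5 in the 120 h group than in untreated cells. Hoxa9 was higher in both groups (87.8 and 96.2 RPKM, against 55.1 RPKM in untreated cells), and Myb had 243 RPKM at 72 h, against 239.7 RPKM in untreated cells. All groups carry the Hoxa9 fusion, so reads of the fusion and of the native Hoxa9 gene cannot be told apart here. Between the 72 h and 120 h groups, Ly6c2 (588 against 534 RPKM) and Ccr2 were the monocyte markers higher at 72 h. The part of these markers in the differences below was not tested. In bulk RNA, more cells of a type and more RNA per cell cannot be told apart.

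Sequence just before the start of transcription is shown for the 3 members found in the RefSeq promoter table of GRCm38.p6, because they differ in their starting level: Cybb was nearly silent in untreated cells, while Cyba and Ncf1 were already abundant. Each is 250 bases long, 5′ to 3′ on the strand of the gene, which is the minus strand for all 3: chrX:9469325-9469574 for Cybb, chr8:122432941-122433190 for Cyba and chr5:134229626-134229875 for Ncf1. Capitals mark matches to the motifs described after the sequences.
Cybb: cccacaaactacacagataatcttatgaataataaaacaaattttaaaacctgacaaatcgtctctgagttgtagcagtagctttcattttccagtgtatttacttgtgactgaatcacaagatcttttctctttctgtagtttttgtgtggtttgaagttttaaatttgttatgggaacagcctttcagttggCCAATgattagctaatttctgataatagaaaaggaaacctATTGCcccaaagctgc
Cyba: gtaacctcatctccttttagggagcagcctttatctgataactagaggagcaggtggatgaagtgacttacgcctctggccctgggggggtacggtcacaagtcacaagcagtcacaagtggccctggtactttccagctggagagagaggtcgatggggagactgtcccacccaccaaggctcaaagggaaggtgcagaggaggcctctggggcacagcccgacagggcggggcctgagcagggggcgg
Ncf1: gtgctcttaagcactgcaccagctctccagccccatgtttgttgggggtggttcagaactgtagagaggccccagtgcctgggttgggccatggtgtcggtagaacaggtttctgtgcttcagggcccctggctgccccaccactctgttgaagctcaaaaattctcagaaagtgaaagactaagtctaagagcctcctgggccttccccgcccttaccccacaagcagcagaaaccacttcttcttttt

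The Cybb stretch was the poorest in G and C, at 34.0%, against 60.0% for Cyba and 54.4% for Ncf1. Short motifs were searched on both strands, from 250 bases before to 50 bases after each start: GAGGAA, a core bound by PU.1, GCAAT, part of a C/EBP site, TATAAA and CCAAT. Positions count from the RefSeq start, as base 1. For Cybb that start is 9469324, the start of the GENCODE transcript used here, while another Cybb transcript carries the gene body 18.4 kb further upstream. Cybb held CCAAT at -56 to -52, GCAAT on the opposite strand at -16 to -12 and GAGGAA on the opposite strand at 10 to 15, past the bases shown, and these matches did not overlap. Cyba and Ncf1 held none of the 4, and TATAAA was in none of the 3 windows. Of the 32851 promoters of that table, 37.4% held CCAAT, 26.4% GCAAT, 28.3% GAGGAA and 13.6% TATAAA. In a window of only the 150 bases before the start, GAGGAA was in none of the 3.

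In the continuous comparison, all 6 oxidase genes were higher in the 120 h group than in untreated cells, where 27.5% of all genes tested were called higher. On the log2 scale Cybb rose the most and Rac2 the least. Cybb passed the filter on low values only through its 72 h and 120 h libraries, so its count there was fixed in part by the filter. The other 5 were above 1 RPKM in all 10 libraries, and all 5 were called higher, by 1.28 to 2.92 on the log2 scale. The median over the 6 was 2.40, against -0.36 over all genes, or 2.83 against 0.01 after median-of-ratios scaling. Leaving out any library, and every other alternative fitted, kept all 6 calls.

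**Figure D1:**
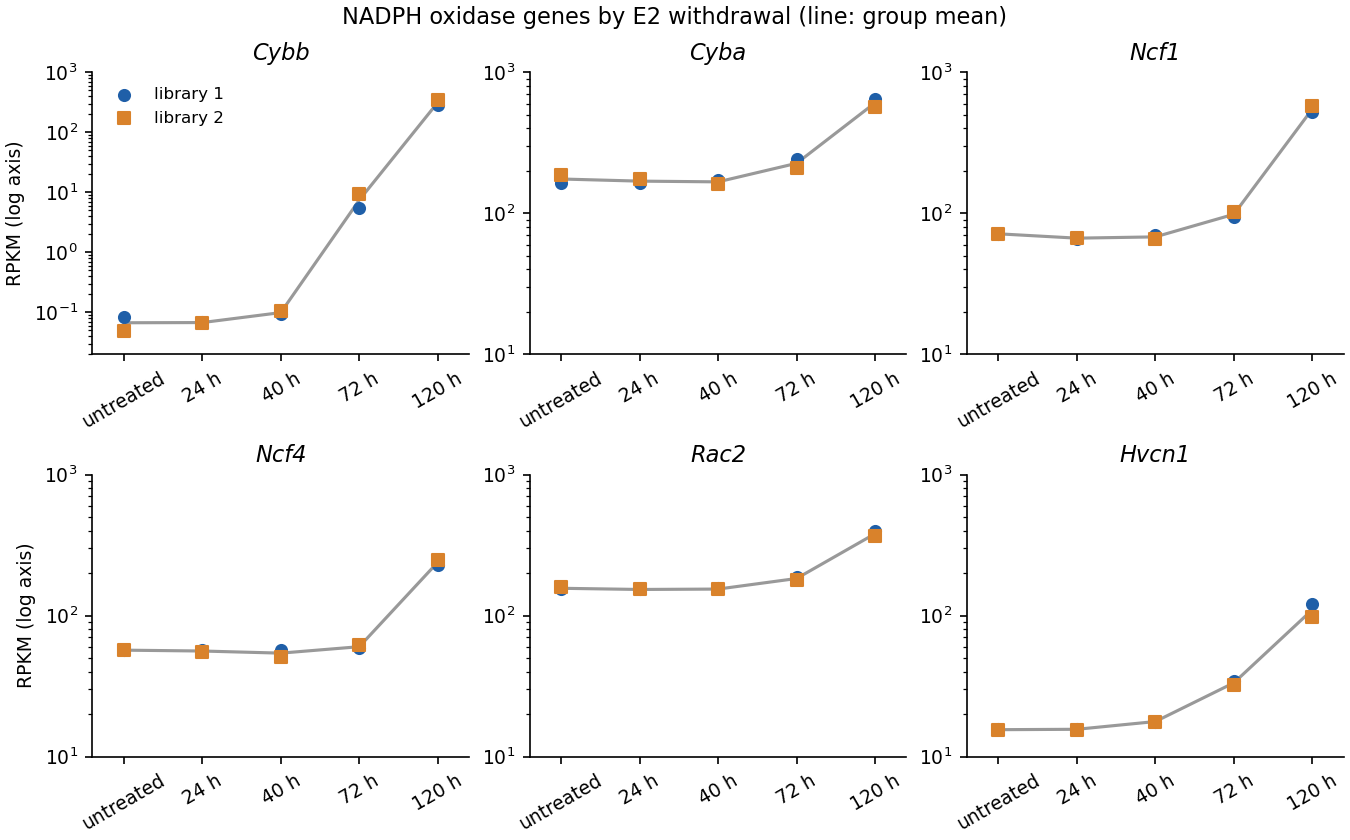
RPKM of each oxidase gene on a log axis in the 10 libraries, by group; circles and squares are libraries 1 and 2 and the line joins group means. All 6 genes are highest at 120 h, and Cybb runs on an axis that starts lower than the others, with untreated libraries below 0.1 RPKM and 120 h libraries at 289.6 and 341 RPKM.

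The membrane core is the pair of Cybb and Cyba. Cybb (X, 9435252 to 9487771, minus strand; positions here and below are GENCODE M21 gene bodies on GRCm38) encodes gp91phox or NOX2, the subunit that carries the electrons. Its level was 0.085 and 0.049 RPKM in untreated, 0.069 and 0.066 in 24 h, 0.093 and 0.105 in 40 h, 5.40 and 9.45 in 72 h and 289.6 and 341 in 120 h libraries. The untreated and 24 h libraries overlapped, the 40 h libraries lay just above them, and each later group stood clear of the one before. The log2 fold change was 8.21 (SE 0.20, adjusted p = 1.48e-08 from limma) for 120 h against untreated. With a pseudocount of 0.1 in place of 1, or with recovered reads, it was larger, up to 12.27, since Cybb was close to 0 in untreated cells. The recovered reads of this transcript are approximate, since they use its GENCODE M21 length and the deposited version differs. At transcript level, a 390-base coding Cybb transcript, whose annotated version is the one in the files, had 15233 and 21503 recovered reads in the 120 h libraries, against 3 and 1 in the untreated ones. Over the 5 listed Cybb transcripts the log2 difference of group means between these groups was 6.55 to 8.51.

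Cyba (8, 122424776 to 122432930, minus strand) encodes p22phox, the partner that stabilises the NOX2 protein. In contrast to Cybb, it was among the abundant genes from the start, with 164 and 186 RPKM in untreated, 164 and 174 in 24 h and 171 and 162 in 40 h libraries, then 243 and 209 in 72 h and 644 and 571 in 120 h libraries. The first 3 groups overlapped, the 72 h libraries were above all of them and the 120 h libraries were above the 72 h ones. Cyba was 1.79 higher on the log2 scale in the 120 h group than in untreated cells (SE 0.12, limma adjusted p = 2.96e-06).

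Because RPKM is per length, the levels of these partners can be set beside each other. The Cybb to Cyba ratio of RPKM was 0.00052 and 0.000264 in untreated, 0.000421 and 0.000379 in 24 h, 0.000544 and 0.000648 in 40 h, 0.0222 and 0.0452 in 72 h and 0.45 and 0.598 in 120 h libraries. Transcripts of the membrane pair were therefore nearest to equal in the 120 h cells, and in the first 3 groups almost all of them were Cyba. The size of the ratio depends on which transcripts are counted: summed over coding transcripts it averaged 0.937 in the 120 h group.

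The cytosolic subunits described here are the organiser Ncf1 and Ncf4, which is known to bind phosphatidylinositol 3-phosphate on the phagosome. Ncf1 (5, 134220053 to 134229625, minus strand) encodes p47phox, which on phosphorylation carries the cytosolic complex to the membrane. It had 71.2 and 71.7 RPKM in untreated, 66.1 and 67.2 in 24 h, 69.9 and 66.2 in 40 h, 94.5 and 102 in 72 h and 519.9 and 577 in 120 h libraries. Its 24 h and 40 h libraries overlapped and lay slightly below the untreated ones, and the 72 h and 120 h groups each stood above. Ncf1 was 2.92 higher on the log2 scale at 120 h than in untreated cells (SE 0.09, limma adjusted p = 3.89e-08). Its annotated exons overlap those of Gtf2ird2 on the opposite strand by 10.4%, and whether counting used strand is not given in the sources used here. An Ncf1 transcript without any overlap averaged 505 RPKM at 120 h and 59.4 RPKM in untreated cells, and Gtf2ird2 itself had a log2 fold change of -0.09 (limma adjusted p = 0.616).

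Ncf4 (15, 78244801 to 78262580, plus strand) encodes p40phox. It had 57.1 and 56.5 RPKM in untreated, 56.7 and 55.3 in 24 h, 57 and 51.1 in 40 h, 58.6 and 61.5 in 72 h and 228 and 249 in 120 h libraries. The first 4 groups spanned only 51.1 to 61.5 RPKM, and the 120 h libraries lay far above them. Ncf4 was 2.05 higher on the log2 scale at 120 h than in untreated cells (SE 0.08, limma adjusted p = 2.2e-07).

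The Ncf1 to Ncf4 ratio was 1.25 and 1.27 in untreated, 1.16 and 1.21 in 24 h, 1.23 and 1.29 in 40 h, 1.61 and 1.66 in 72 h and 2.28 and 2.31 in 120 h libraries, so the last 2 groups stood apart from the rest and from each other. This ratio was not tested.

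**Figure D2:**
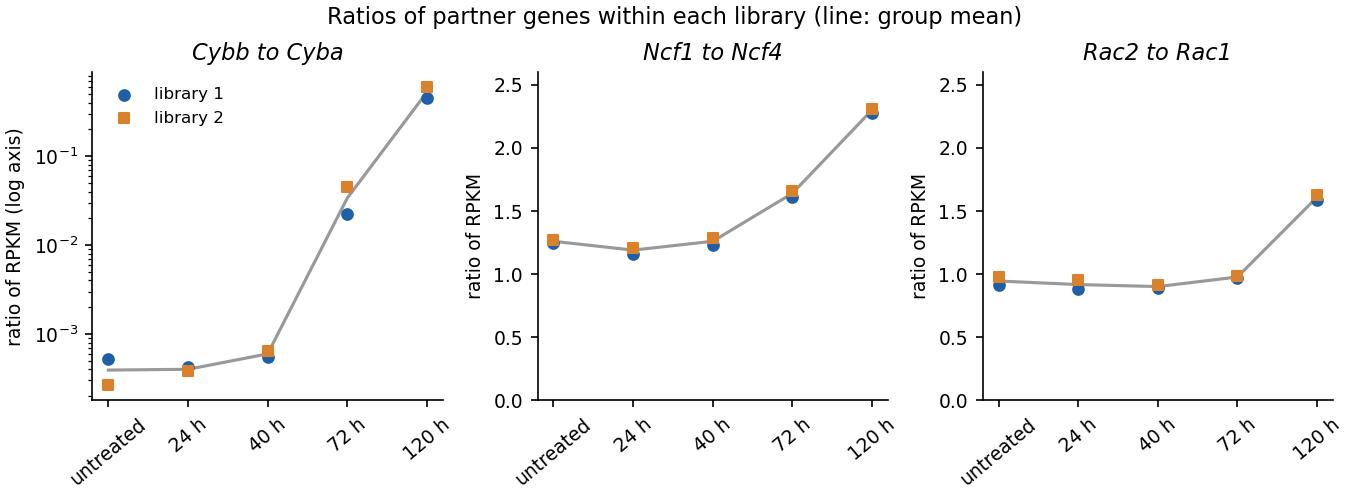
Ratios of RPKM within each library, by group, for Cybb to Cyba (log axis), Ncf1 to Ncf4 and Rac2 to Rac1 (linear axes from 0); circles and squares are libraries 1 and 2 and the line joins group means. The Cybb to Cyba ratio spans 0.000264 to 0.598, and the highest Ncf1 to Ncf4 ratios, 2.28 and 2.31, are those of the 120 h libraries.

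Rac2 (15, 78559167 to 78572783, minus strand) is the Rac GTPase of blood cells that completes the active oxidase. It had 153 and 159 RPKM in untreated, 153 and 153 in 24 h, 156 and 153 in 40 h, 188 and 178 in 72 h and 396 and 364 in 120 h libraries. The first 3 groups overlapped, and the 72 h and 120 h libraries were each above all earlier ones. Its log2 fold change at 120 h against untreated was 1.28 (SE 0.09, limma adjusted p = 3.36e-06), the smallest of the 6. Rac1, the widely expressed Rac that can also serve the oxidase in macrophages, had about the same level as Rac2 until 72 h. The Rac2 to Rac1 ratio averaged 0.977 ± 0.0111 in the 72 h group and 1.61 ± 0.0301 in the 120 h group, against 0.945 ± 0.0416 in untreated cells (SD, n = 2 each).

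Hvcn1 (5, 122206804 to 122242297, plus strand) encodes the voltage-gated proton channel, which offsets the charge that the oxidase moves. It had 15.6 and 15.4 RPKM in untreated, 15.8 and 15.4 in 24 h, 17.7 and 17.7 in 40 h, 34.6 and 32 in 72 h and 121 and 98.4 in 120 h libraries. Its 40 h libraries were above all 4 earlier ones, which overlapped, and the later groups stepped up further. Its log2 fold change at 120 h against untreated was 2.74 (SE 0.10, limma adjusted p = 1.16e-07). Hvcn1 is uncertain as a single gene, since 56.1% of the exon bases of the transcript used lie over exons of Tctn1 on the opposite strand. An Hvcn1 transcript with no such overlap averaged 68.9 RPKM in the 120 h group and 16.4 RPKM in the 72 h group, against 5.01 RPKM in untreated cells. Tctn1 was called higher at 120 h (log2 fold change 1.35, limma adjusted p = 3.61e-06) and was not called at 72 h (0.16, adjusted p = 0.2).

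The 72 h group was set against untreated cells to see what remained after 72 h without E2 and 48 h back in it. Of the 6 genes, 4 were called higher (Cybb, Cyba, Ncf1 and Hvcn1) and 2 were not called (Rac2 and Ncf4), beside 21.6% of all genes called higher. That share was 12.8% without 72 h library 2 and 12.3 and 13.0% without untreated library 1 or 2. With the 120 h group left out of the fit, 3946 of 13004 genes were called higher than in untreated cells, against 2803 with it. Among the 5 genes that were above 1 RPKM in all libraries, 3 were called higher with all groups in the fit. Cybb was 2.94 higher on the log2 scale (SE 0.20, limma adjusted p = 1.31e-05) and Hvcn1 1.05 higher (SE 0.10, adjusted p = 8.49e-05). The Cybb value ranged up to 6.77 over the alternatives, with voom on recovered reads, which are approximate for Cybb as said above. The mean RPKM of Cybb was 111 times that of untreated cells, yet only 2.35% of its 120 h mean.

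The other 4 genes lay nearer to the untreated level. Ncf1 was 0.45 higher on the log2 scale (SE 0.09, limma adjusted p = 0.00371), a call lost only with quantile normalization (adjusted p = 0.0629). Cyba was 0.37 higher (SE 0.12, limma adjusted p = 0.0376), and this call was lost in 8 of 21 alternatives. Its adjusted p was 0.0631 with no filter on low values, 0.2 without 72 h library 1, 0.228 and 0.0676 without untreated library 1 or 2, and 0.0633 to 0.0655 without any library of the 40 h or 24 h group. Rac2 had a log2 difference of 0.23 (95% interval 0.03 to 0.43, limma adjusted p = 0.0669) and passed the threshold in 9 of 21 alternatives, with adjusted p of 0.00786 when the 120 h group was left out. That fit also called more of all genes higher, 3946 against 2803. Ncf4 had a log2 difference of 0.08 (95% interval -0.12 to 0.27, limma adjusted p = 0.476) and was called in none of the 21. The interval of Ncf4 allows a difference of up to 0.27 on the log2 scale.

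Set against the full 120 h difference, that of the 72 h group was under 20% for every gene by group means. As a percent of the difference in mean RPKM between the 120 h and untreated groups, it was 18.9% for Hvcn1, 12.0% for Rac2, 11.9% for Cyba, 5.63% for Ncf1, 2.33% for Cybb and 1.80% for Ncf4. The 2 libraries gave 20.2 and 17.5% for Hvcn1, 14.3 and 9.7% for Rac2, 15.8 and 8.0% for Cyba, 4.82 and 6.43% for Ncf1, 1.69 and 2.98% for Cybb and 0.998 and 2.6% for Ncf4. The order was the same in both libraries apart from Cyba and Rac2, which changed places.

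The direct comparison of the 72 h with the 120 h group gave all 6 genes as lower in the 72 h group, where 26.4% of all genes were lower. The log2 fold changes were -5.27 for Cybb (SE 0.20), -2.47 for Ncf1 (SE 0.09), -1.97 for Ncf4 (SE 0.08), -1.69 for Hvcn1 (SE 0.10), -1.42 for Cyba (SE 0.12) and -1.05 for Rac2 (SE 0.09), with limma adjusted p from 3.33e-07 to 1.44e-05. Of the 5 genes other than Cybb, all 5 were lower. All 6 calls held in the 20 alternatives of this comparison. These values share the 120 h libraries with the comparison of 120 h and untreated cells.

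The step from 40 to 72 h of withdrawal was compared next. The same 4 genes were called higher in the 72 h group than in the 40 h group, where 13.9% of all genes were: Cybb by 2.90 (SE 0.20), Hvcn1 by 0.87 (SE 0.10), Ncf1 by 0.52 (SE 0.09) and Cyba by 0.43 (SE 0.12) on the log2 scale. The share of all genes was 7.04% without 72 h library 2, 6.77 and 8.07% without 40 h library 1 or 2, and 23.1 and 23.2% without 120 h library 1 or 2. Of the 5 genes other than Cybb, whose call is fixed in part by the filter, 3 were called higher. Rac2 had a difference of 0.24 (95% interval 0.04 to 0.45, limma adjusted p = 0.0743) and Ncf4 one of 0.15 (95% interval -0.04 to 0.35, limma adjusted p = 0.222). The Cyba call (limma adjusted p = 0.0298) was lost in 7 of 21 alternatives, including without 72 h library 1 (0.152) and without 40 h library 1 or 2 (0.103 and 0.148), that of Ncf1 with quantile normalization (0.0586), and Rac2 was gained in 6. This comparison shares the 72 h libraries with the one against untreated cells.

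After 24 or 40 h without E2 followed by add-back, no oxidase gene was called. In the 40 h group against untreated cells 4.29% of all genes were called in either direction, and the 6 differences ran from -0.07 to 0.18 on the log2 scale. The share of all genes rested on single libraries: it was 0.477 and 1.71% without 40 h library 1 or 2, 0.315 and 0.638% without untreated library 1 or 2, 2.31 and 2.34% without 24 h library 1 or 2, and 13.7 and 13.8% without 120 h library 1 or 2. The largest of the 6 differences was that of Hvcn1 (0.18, 95% interval -0.05 to 0.41, limma adjusted p = 0.4), which was called when libraries were weighted by quality (adjusted p = 0.0316). With those weights 1050 of the 13004 genes tested were higher and 1808 lower, against 121 and 437 without them. In the 24 h group against untreated cells 0% of all genes were called by limma, 365 having an unadjusted p under 0.05 and voom on recovered reads calling 0 as well; without either 120 h library 3 genes were called (0.0231%). The 6 differences there ran from -0.10 for Ncf1 to 0.01 for Hvcn1. Between the 40 h and 24 h groups, where 0.285% of all genes were called, the range was -0.05 to 0.18, and that share was 0.0% without either 24 h library, 0.0308 to 0.146% without a 40 h, 72 h or untreated library and 1.79 to 1.82% without a 120 h library. For the 5 genes other than Cybb, the 95% intervals against untreated cells stayed within -0.34 and 0.41 in both groups. Those of Cybb were wider, at -0.42 to 0.50 and -0.46 to 0.46.

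**Figure D3:**
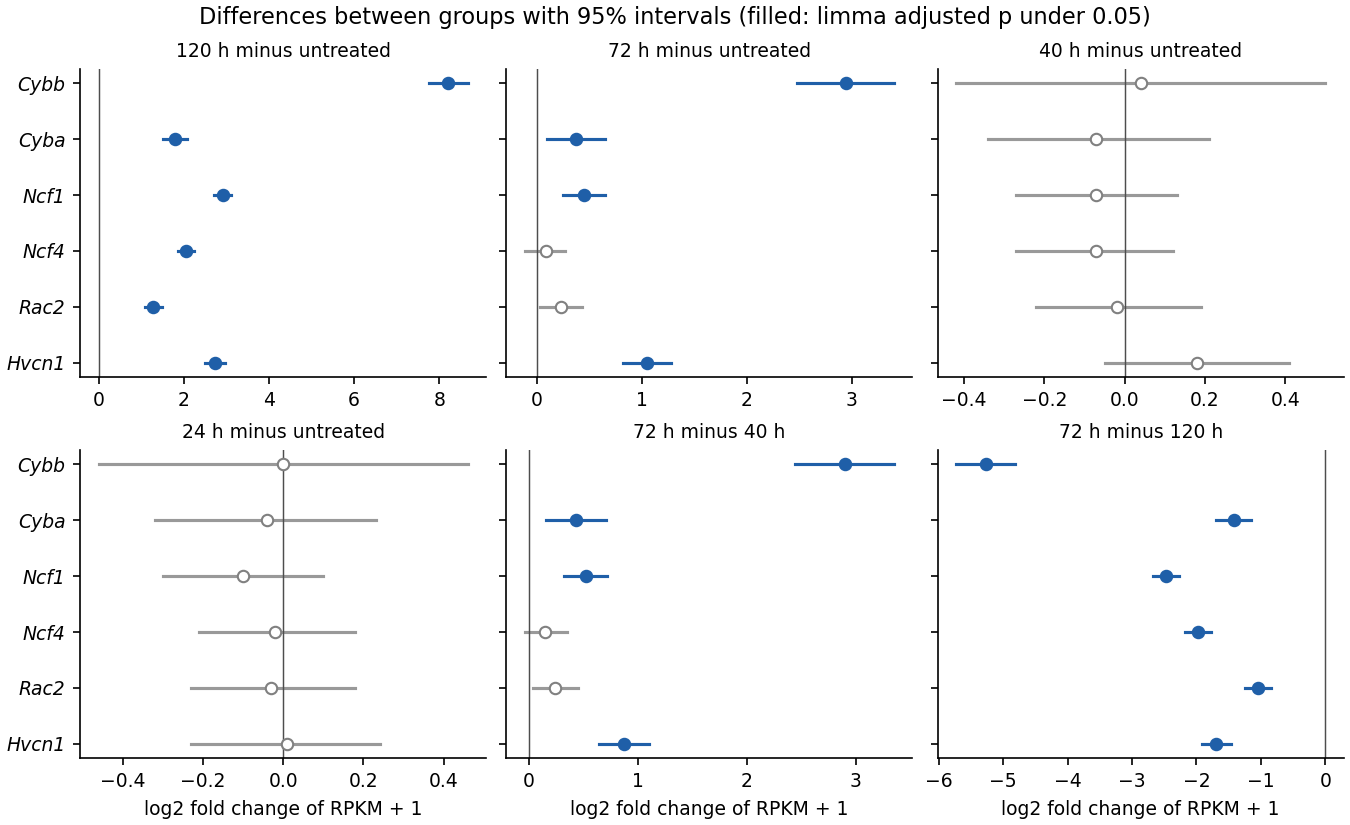
Log2 fold changes of RPKM + 1 with 95% intervals in 6 comparisons; filled points were called by limma (BH adjusted p under 0.05), and each panel has its own scale. All 6 genes are right of 0 in 120 h minus untreated and left of 0 in 72 h minus 120 h, and none is filled in the 40 h and 24 h panels.

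Across the 10 libraries the 6 genes moved closely together on the log2 scale, with Pearson correlations from 0.937 (Hvcn1 and Ncf4) to 0.998 (Rac2 and Cyba). These values describe 5 groups dominated by the 120 h libraries and carry no test. The genes whose levels followed each member most closely, by Pearson correlation over the 10 libraries, differed between members. They were sought among the tested protein-coding genes, leaving out the 6 members and genes with Gm, Rik or clone names. Nearest to Cybb were Stfa2l1 (0.9997), Slfn2 and Stfa2, and Stfa2l1 averaged 0.252 RPKM in untreated and 1891.1 RPKM in 120 h cells; Stfa genes are near-identical copies and uncertain as single genes. Nearest to Ncf1 were Asprv1, Fgr and Cxcr2, the last a chemokine receptor of neutrophils, and nearest to Ncf4 were Klf2, Slamf7 and Acod1. Rac2 was nearest to Prdx5 (0.9991), a peroxiredoxin, then to Msra and Rragc. Cyba was nearest to Ugdh (0.9962), Pglyrp1 and Mthfs, and Hvcn1 to Lamp2 (0.9986), a lysosomal membrane protein, Ikzf3 and Glrx.

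Ncf4 and Rac2 lie on the same chromosome, 296.6 kb apart. Between them GENCODE M21 lists 17 genes, 10 of them protein-coding, and 8 were tested. In the 120 h group against untreated cells 4 were higher and 4 lower, beside 27.5% of all genes called higher and 52.7% called lower. The 4 higher were Csf2rb2 (4.63), Csf2rb (2.69) and a miRNA gene inside each of them, so they do not count as 4 separate places. Csf2rb and Csf2rb2 encode the shared beta chain of the GM-CSF, interleukin-3 and interleukin-5 receptors and its close copy, so reads may be shared between them. The lower genes were Tst (-2.47), Kctd17 (-1.76), C1qtnf6 (-1.48) and Mpst (-0.72). The rise of Ncf4 and Rac2 was thus not common to the whole interval.

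**Figure D4:**
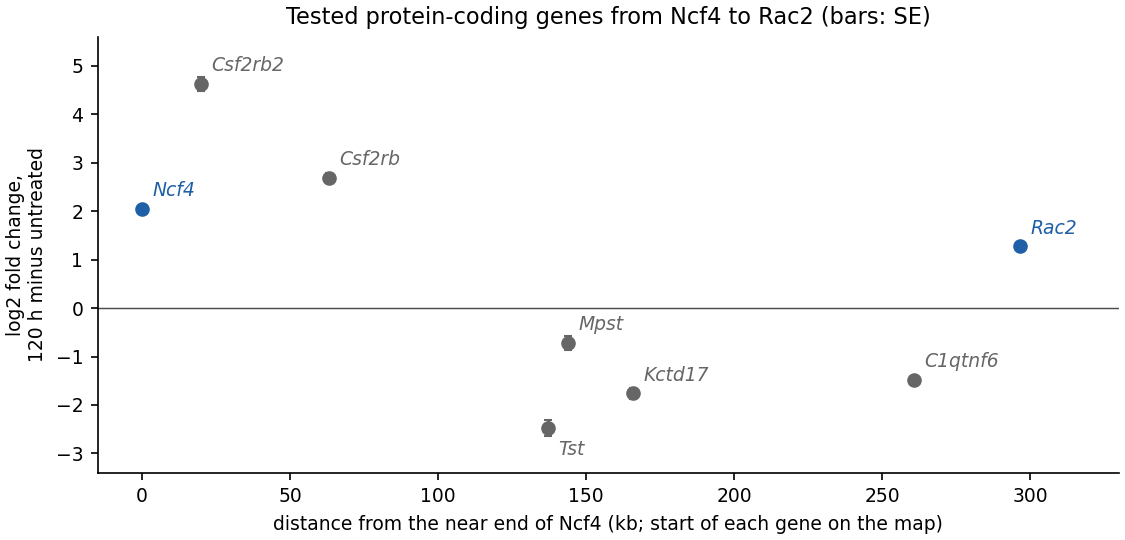
Log2 fold change from limma (120 h minus untreated, bars SE) of the tested protein-coding genes from Ncf4 to Rac2, against distance in kb from the near end of Ncf4. Ncf4, Csf2rb2 and Csf2rb are above 0 on the left, Tst, Mpst, Kctd17 and C1qtnf6 are below 0, and Rac2 at 296.6 kb is above 0.

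The partners of the 6 genes were given from lists. Of other subunits and chaperones, 3 genes were described, and all 3 rose in the 120 h group against untreated cells: Rap1a, a GTPase that associates with the membrane core (0.66), Cybc1, a chaperone of that core (0.52), and Rac1 (0.51), all log2 fold changes. None of these 3 was called at 72 h against untreated cells, with limma log2 differences of 0.18 for Rac1, 0.04 for Rap1a and 0.03 for Cybc1 (adjusted p = 0.167, 0.683 and 0.76). Of 7 genes of other NADPH oxidases and their organisers, 1 was tested: Nox1, a catalytic subunit best known from the colon, which was lower at 120 h (-1.06), with 1.08 and 0.467 RPKM against 2.69 and 2.61 RPKM in untreated cells. Duox1, Noxa1 and Noxo1 were below the filter. No level was found for Nox3, Nox4 and Duox2, so they are not described as low. Nox1 averaged 2.72 RPKM in the 72 h group, below the 7.43 RPKM of Cybb, and 2.65 RPKM in untreated cells, above the 0.067 RPKM of Cybb.

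Of 14 kinases, Rac exchange factors and inhibitors upstream of the oxidase, 9 were higher, 1 was lower and 4 were not called at 120 h against untreated cells, or 13 and 1 with median-of-ratios scaling. With that scaling 5222 of the 13051 genes tested were higher and 4982 lower. The protein kinase C genes changed in opposite directions. Prkcb, which encodes a kinase of p47phox in neutrophils, averaged 32.6 ± 2.92 RPKM at 120 h, against 2.34 ± 0.336 RPKM in untreated cells (SD, n = 2 each; log2 fold change 3.33), while Prkca averaged 0.328 ± 0.12 RPKM, against 9.32 ± 0.0594 RPKM in untreated cells (-2.96). Pak1, a kinase that acts downstream of Rac and on p47phox, was 2.69 higher. The uncalled members of highest level were Arhgdia (0.15), a GDP-dissociation inhibitor that holds Rac in the cytosol, and Akt1 (0.12), a kinase of p47phox. With median-of-ratios scaling both were called higher, at 0.59 and 0.56. In the 72 h group against untreated cells 7 of the 14 were higher and 2 lower, with Prkcb at 2.19, Pak1 at 1.21 and Prkca at -1.96.

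NADPH, the electron source, comes largely from the pentose phosphate pathway. Of 6 tested supply genes, 4 were higher and 1 lower at 120 h against untreated cells. G6pdx, the enzyme of the entry step, had 228 and 204 RPKM at 120 h, against 31.9 and 32.7 RPKM in untreated cells (log2 fold change 2.70), and Idh1 rose by 1.48, while Pgls, the enzyme of the next step, fell (-1.62). Tkt was not called (0.00, limma adjusted p = 1.0) but was at 0.44 and called with median-of-ratios scaling, and Me1 was below the filter. At 72 h against untreated cells the count was again 4 higher and 1 lower, with Idh1 at 1.29, G6pdx at 0.75 and Pgls at -0.75.

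Enzymes that remove or use superoxide and peroxide were mixed. Of 13 genes, 3 were higher and 8 lower at 120 h against untreated cells, but 5 and 3 with median-of-ratios scaling and 4 and 6 with quantile normalization, and the median of the list was 0.04 with the first, against -0.40 as deposited, so its direction depends on the scaling. Over all genes tested, 5222 were higher and 4982 lower of 13051 with median-of-ratios scaling. With quantile normalization 4307 were higher and 6012 lower of 13004. Gsr, glutathione reductase, was 3.07 higher and Prdx5 was 2.15 higher under the deposited scaling, at 3.51 and 2.59 with median-of-ratios scaling. Mpo, the myeloperoxidase that turns peroxide into hypochlorous acid, had 463 and 178 RPKM at 120 h, against 2041.7 and 2433.1 RPKM in untreated cells (-2.95). Mpo was highest in the 72 h libraries, at 4334.1 and 4136.8 RPKM, though that difference from untreated cells was not called (0.93, limma adjusted p = 0.0837). Prdx6 (-0.17) and Cat (0.09) were not called at 120 h; with median-of-ratios scaling Cat was called higher (0.52, limma adjusted p = 0.000353) and Prdx6 was at 0.26 and not called (adjusted p = 0.0962). At 72 h against untreated cells 3 of the 13 were higher and 4 lower, and Gsr (2.52) led them.

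Of 7 transcription factors known to act on oxidase genes, 6 were higher and 1 was lower at 120 h against untreated cells. Cebpe, a factor of late granulocyte maturation, had 132 and 98 RPKM at 120 h, against 6.80 and 7.60 RPKM in untreated cells (3.81). Spi1, which encodes PU.1, was 2.16 higher and Cebpb 2.14 higher, while Cebpa was lower (-1.79). At 72 h against untreated cells 4 were higher and 2 lower, with Cebpe at 2.28, Spi1 at 0.79, Cebpb at 0.69 and Cebpa at -0.51. These lists are described by their counts alone, beside the 27.5% and 21.6% of all genes that were higher in the 2 comparisons and the 52.7% and 22.3% that were lower (14.5% for the last without untreated library 2).

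**Figure D5:**
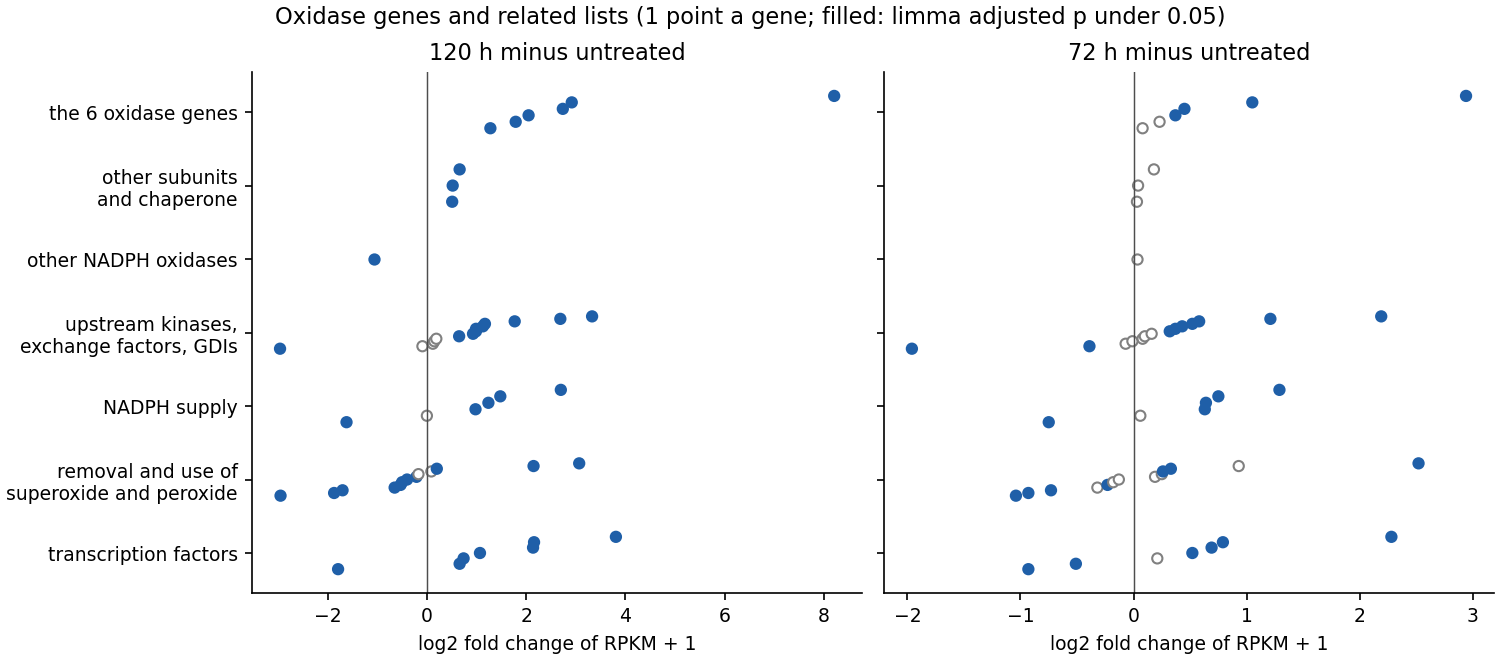
Log2 fold changes of RPKM + 1 for the 6 oxidase genes and 6 related lists in 120 h minus untreated (left) and 72 h minus untreated (right), 1 point a gene, filled where called by limma. All 6 oxidase genes and the 3 other subunits and chaperones are right of 0 on the left panel, and the enzymes that remove or use superoxide and peroxide lie on both sides of 0.

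In the 40 h group against untreated cells, where none of the 6 oxidase genes was called, related genes were called in 4 of the lists. Beside them, 4.29% of all genes were called in either direction, a share that rested on single libraries as described above. How the calls of these related genes fare without single libraries is not given here. Prkcb (0.81), Pak1 (0.37), Idh1 (0.54), Gsr (0.89) and Cebpe (0.88) were higher and Irf8, a factor of the monocyte series, was lower (-0.49), with limma adjusted p from 0.00666 to 0.0462. The calls of Cebpe and Irf8 were lost with median-of-ratios scaling (adjusted p = 0.0501 and 0.0601). No gene of any list was called in the 24 h group against untreated cells.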

How the data were processed

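The deposited values were RPKM per Ensembl transcript, 1 file a library with 79535 transcripts each, per the file headers. Per the submitters' processing notes the aligner was STAR and the build GRCm38. Not given in the sources used here are versions, the counting program, its use of strand and the filter on the files. Identifiers were matched to GENCODE M21 without their version, 77720 of 79535 (97.7%), of which 38278 had the same version. Each gene was represented by 1 transcript (by coding status, APPRIS principal status, CCDS membership and length, in that order). Denominators in reads were recovered from the steps between low values, which were whole within 0.02 reads for 99.8 to 100% of the values tried in each library.

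From these values log2(RPKM + 1) was tested, 2-sided, by limma's eBayes with a mean trend (limma 3.58.1, R 4.3.3) over all 10 libraries with group as the only term, giving 5 residual and 3.04 prior degrees of freedom. The 13004 genes at 1 RPKM or more in at least 2 of 10 libraries entered, with BH adjustment over all of them in each of 7 comparisons. The fit was tested on simulated data. The members, the related lists, the marker lists and the motifs were chosen with earlier results of these data known. Named genes were the 6 members, up to 3 called genes of largest change and up to 2 uncalled genes of highest level in each list at 120 h. Also named were the 3 tested protein-coding genes nearest to each member, leaving out members and Gm, Rik or clone names. Irf8 and the genes between Ncf4 and Rac2 were named after their values were seen. Cebpa and the untested genes of the lists were named outside these rules. Alternatives were another pseudocount, no filter, 2 scalings, array weights, other samples or transcripts in the fit, voom on recovered reads, a replicate block and leaving out each library. A gene of these lists is not reported here. No sequence of Ncf4, Rac2 or Hvcn1 was used here.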

Additional observations from a re-analysis of the deposited data

How the results depend on the processing

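Of 870 alternative fold changes of the members, 837 kept their side of the threshold, 17 lost a call and 16 gained one. No called fold change reversed. Some uncalled ones changed sign, such as Cyba in 24 h against untreated, which ran from -0.14 to 0.05. All 6 calls of 120 h against untreated and of 72 h against 120 h held throughout; leaving out the 120 h group gives no value there. Leaving out each library gave 6 to 6 calls in these comparisons, 3 to 5 in 72 h against untreated and in 72 h against 40 h, and 0 to 0 in the others. With array weights, 1 member was called in 40 h against untreated (Hvcn1). Over all genes, 1050 were then higher and 1808 lower in that comparison, against 121 and 437 without weights. In 24 h against untreated, 11 of all genes were higher and 23 lower with array weights, against 0 without weights. Summed over coding transcripts, the mean Cybb to Cyba ratio was 0.000569 at 24 h, 0.00111 at 40 h, 0.0577 at 72 h and 0.937 at 120 h; reads may count in several transcripts there. GAGGAA was in 0 of 3 windows of the 150 bases before the start. The deviations of same-numbered libraries correlated at 0.03 to 0.64 between groups, not above 0.1 in every pair of groups (0.03 for 72 h and untreated, 0.09 for 40 h and untreated), so the numbers were not taken as pairs; with the replicate block the counts of members called were 6, 4, 0, 0, 0, 4 and 6 as without it, and all 42 fold changes kept their call. With 2 libraries a group, the 72 h calls of Cyba and Rac2 changed with the libraries in the fit. Cybb was the lowest member in untreated, 24 h and 40 h cells, at 0.049 to 0.105 RPKM, well below the pseudocount of 1 RPKM, which compresses its differences there. For scale, 1 read on a 2 kb transcript is worth 0.00245 to 0.00285 RPKM in these libraries. The Cybb transcript used is longer, at 4752 bases in GENCODE M21, though in another version than in the deposited values.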
